A study of Homo sapiens with 3 samples.

Results

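The genes described here encode the kinases that phosphorylate splicing factors, the serine/arginine-rich (SR) proteins and their relatives, factors that recognise the 3' splice site, heterogeneous nuclear ribonucleoproteins (hnRNPs) and the splicing regulators RBM39, RBM25 and RBM5. They were chosen by symbol from a list of 44 genes, taking every probe set that the platform annotation assigns to that symbol alone. This gave 43 genes on 211 probe sets, of 18132 genes on the arrays, with 1 to 11 probe sets per gene. The remaining gene, U2AF1, lay only on probe sets with several symbols and is not analysed here. For a single value per gene, the probe set of highest mean over the arrays was taken, and all 43 lay above the filter on dim genes, a mean log2 signal of 5.28 over the arrays.

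The cells were KYSE180, an established line from a human squamous carcinoma of the oesophagus, and the 3 oligonucleotide arrays held 1 sample each of control cells, cells given a HOTAIR vector and cells given siRNAs targeting HOTAIR. HOTAIR is a long non-coding RNA from the HOXC locus that binds chromatin-modifying complexes. The vector, LZRS_HOTAIR, was delivered with Polyfect, the mixture of siRNAs with Lipofectamine2000 at 100 pmol, and RNA was taken 48 h after transfection. The labels call the control only control and do not state a reagent for it, so reagent and HOTAIR manipulation cannot be told apart in a comparison with control. The source name of the siRNA sample speaks of a HOTAIR cell line, whereas its title and cell line field give KYSE180. With 1 array per group there is no replicate and no test, and every difference below is a description of these arrays. Error was gauged from how far probe sets of a gene lay apart: over 41 of these genes the pooled SD was 0.50 (log2) when vector was set against control, 0.53 when siRNA was, and 0.14 when the arms were set against each other. Over 5982 genes of the whole array these SDs were 0.36, 0.39 and 0.21. This spread leaves out variation between arrays and between cultures, which 1 array per group cannot show.

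Of the 9 squamous epithelial markers examined, 6 had a probe set of their own, and their log2 signals lay between 10.2 and 13.4 on the 3 arrays. Signals of the leukocyte, endothelial and fibroblast markers lay between 2.59 and 5.94, with the leukocyte gene PTPRC at 2.74, 2.71 and 2.59. In bulk RNA, fewer cells of a type and less RNA per cell cannot be told apart. The control array was the highest of the 3 for 53.5% of the 10917 genes kept and the lowest for 35.5%. Among the splicing genes it was the highest for 18 of 43 and the lowest for 22.

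SR proteins bind exonic enhancers through RNA recognition motifs and recruit the spliceosome through a domain of arginine-serine repeats. The SRPK kinases phosphorylate that domain mainly in the cytoplasm and so direct SR proteins to the nucleus, and the CLK kinases phosphorylate it further in the nucleus and release SR proteins from nuclear speckles. The hnRNPs coat nascent transcripts and often oppose SR proteins at silencer elements. Many of these genes regulate their own messages through alternative exons or retained introns, and CLK1 and CLK4 transcripts with retained introns are stored in the nucleus.

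Most splicing genes lay close to control in both arms, and a few stood far above it. In vector minus control 4 of the 43 genes were at least 2-fold higher, a log2 difference of 1, where 15.2% of all genes kept were. None was 2-fold lower, where 2.05% of all genes were. In siRNA minus control 6 of 43 were at least 2-fold higher against 14.9% of all genes, and 0 lower against 1.85%. Of genes at or above the 75th percentile of signal, where 42 of the 43 lay, 15.8% and 15.7% were 2-fold higher. At 1.5-fold, 9 genes were higher and 2 lower in vector cells, beside 22.9% and 19.4% of all genes, and 9 and 3 in siRNA cells, beside 22.8% and 18.0%. The shares of splicing genes past either line were thus near or below the background. CLK1, LUC7L3, SRSF11 and SF3B1 were past 2-fold in both arms, which share the control array, and HNRNPA3 and RBM39 in siRNA cells. The median difference over the 43 genes was 0.02 in vector and 0.20 in siRNA cells, beside -0.18 and -0.17 over all genes kept. Repeated quantile normalization put that all-gene median at -0.29 and -0.24 and cyclic loess at -0.04 and -0.01, so a gene slightly below control can lie above the median gene. Centred on that median, SRSF5, SRSF9, SRRM1, SRRM2, RBM5, HNRNPA0, HNRNPC, HNRNPD, HNRNPH1, HNRNPM and HNRNPU turned from below to above 0 in vector cells, and SRRM1, RBM5, HNRNPD, HNRNPM and HNRNPU did so in siRNA cells. None of the 6 genes past 2-fold changed sign under these scalings. Their differences were larger in size than every all-gene median given here, so keeping their sign adds no support.

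**Figure D1:**
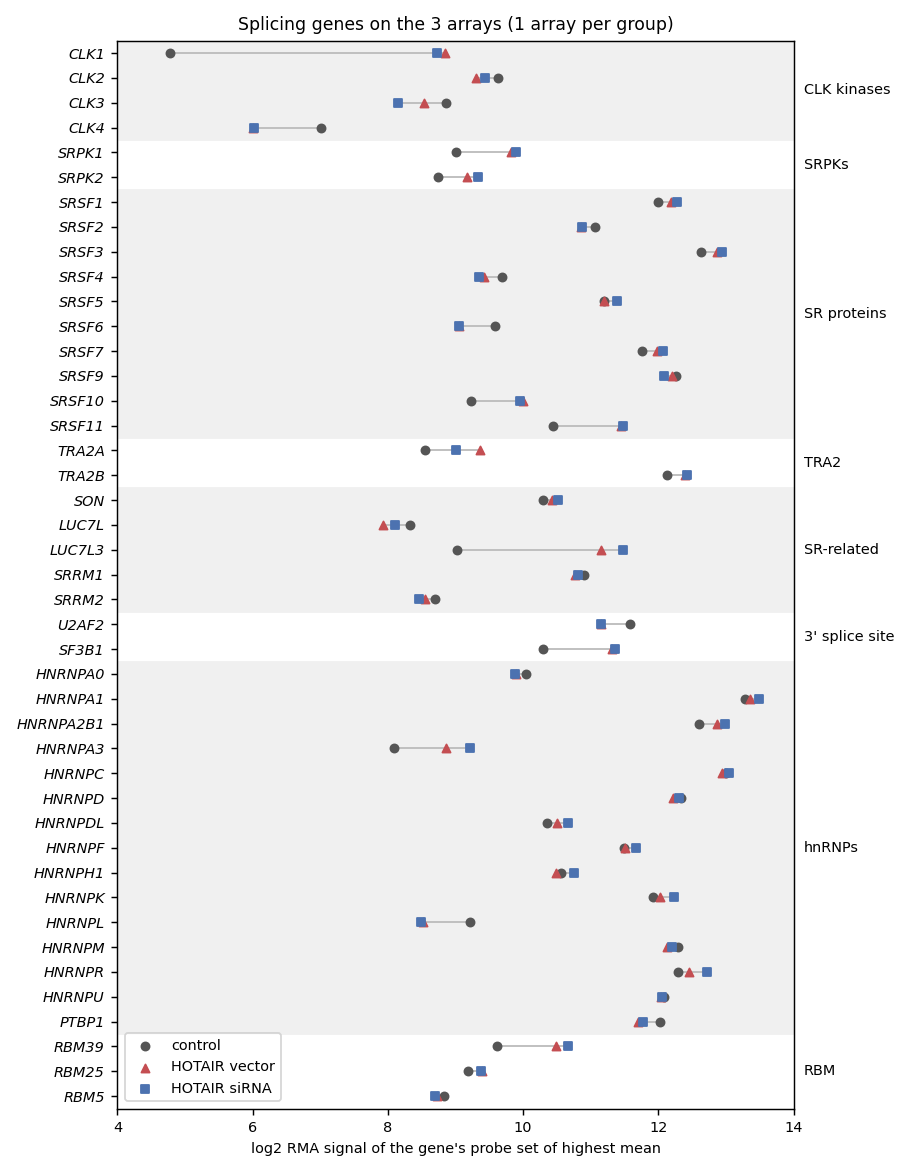
Log2 RMA signal of each splicing gene on the control (circles), HOTAIR vector (triangles) and HOTAIR siRNA (squares) arrays, grouped by role, 1 array per group. CLK1 (4.77 in control, 8.85 and 8.72 in the arms) and LUC7L3 (9.02, 11.15 and 11.47) have the widest gaps, and most other genes have all 3 points close together.

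The CLK kinases differed among themselves more than any other role group here. CLK1 had log2 signals of 4.77 in control cells, 8.85 with the vector and 8.72 with the siRNAs, a difference of 4.08 and 3.95. Its control signal lay below the filter of 5.28 and within the range of the leukocyte, endothelial and fibroblast markers, so it was not shown to be above background there, and CLK1 passed the filter through the arms in which it was high. CLK1 was thus low in control and high in both arms. CLK2 had 9.62, 9.31 and 9.44, and CLK3 had 8.85, 8.54 and 8.15, so both were highest in control by less than 2-fold. CLK4, whose protein is the closest relative of CLK1, had 7.01, 6.01 and 6.02 on its probe set of highest mean, a difference from control of -0.999 in vector and -0.991 in siRNA cells that just missed 2-fold.

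The probe sets of CLK4 went apart. Of its 9 probe sets, 4 lay 2-fold or more above control in the vector arm and 3 in the siRNA arm. Only 2 of the 9 had a mean above the filter. On each probe set past 2-fold the control signal lay under the filter, so it was not shown to be above background there. The probe set next in mean signal had 4.49 in control cells, 7.35 with the vector and 6.94 with the siRNAs, a difference of 2.86 and 2.45 in the direction opposite to the probe set of highest mean. A further one, whose mean lay below the filter, had 2.87, 6.19 and 5.36. The mean difference over the 9 probe sets was 1.12 in vector and 0.73 in siRNA cells, with an SD of 1.44 and 1.17, so the direction given for CLK4 depends on the probe set taken. With the mean or median over probe sets, CLK4 fell below the filter. CLK1 was higher on all of its 3 probe sets, by 1.20 to 4.13 in vector and 1.14 to 3.95 in siRNA cells, and it stayed past 2-fold under all 6 alternatives run for single genes, where it ranged from 2.83 to 4.26 and from 2.52 to 4.12. CLK2 was below control on all 3 of its probe sets in both arms, by 0.15 to 0.58 in vector cells. For CLK3 the probe sets ranged from -0.31 to 0.23 and from -0.70 to 0.03.

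**Figure D2:**
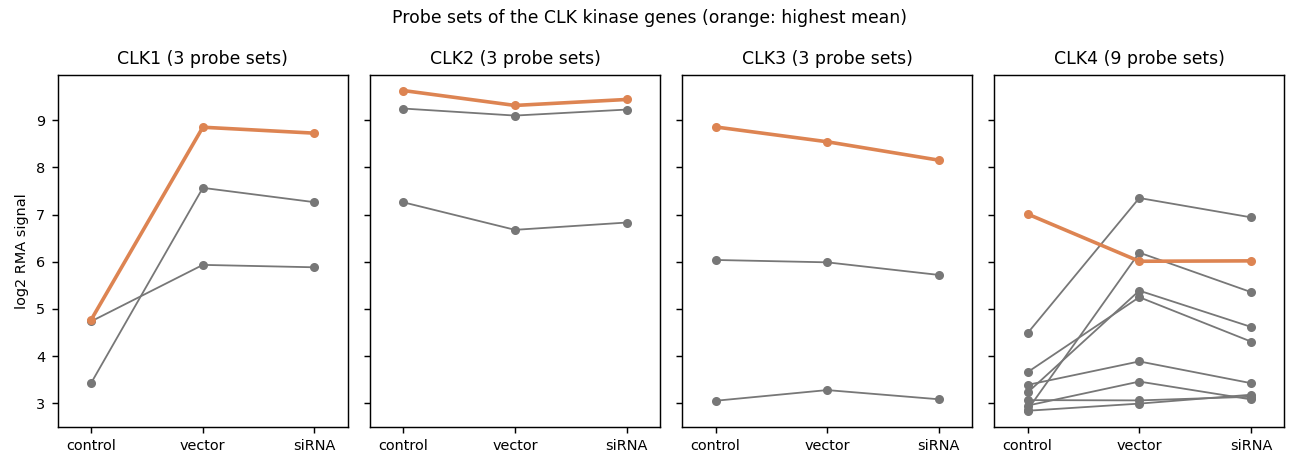
Log2 RMA signal of every probe set of the 4 CLK kinase genes on the control, vector and siRNA arrays; each line is a probe set and the orange line is the one with the highest mean. All 3 lines of CLK1 go up from control to both arms, while for CLK4 the orange line goes down (-0.999 for the vector) and 4 of the other lines go up at least 2-fold.

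Because CLK1 and LUC7L3 were higher in both arms while CLK2 was not, the 150 bases before the start of these genes and of CLK4 are shown 5′ to 3′ along the gene's strand, from RefSeq on GRCh38.p14. Capitals mark matches, on either strand, to the GC box GGGCGG, the CCAAT box, the TATA box TATAAA and the cyclic AMP response motif TGACGT. CLK1 lies on the minus strand (chr2:200864659-200864808), CLK4 on the minus strand (chr5:178627051-178627200), LUC7L3 on the plus strand (chr17:50719453-50719602) and CLK2 on the minus strand (chr1:155273505-155273654).
CLK1: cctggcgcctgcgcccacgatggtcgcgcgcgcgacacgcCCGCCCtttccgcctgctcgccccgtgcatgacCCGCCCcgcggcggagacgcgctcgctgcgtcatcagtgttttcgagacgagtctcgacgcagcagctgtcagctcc
CLK4: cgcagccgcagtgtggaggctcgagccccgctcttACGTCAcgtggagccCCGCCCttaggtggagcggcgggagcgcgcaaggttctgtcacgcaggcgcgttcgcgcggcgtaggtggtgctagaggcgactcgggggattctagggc
LUC7L3: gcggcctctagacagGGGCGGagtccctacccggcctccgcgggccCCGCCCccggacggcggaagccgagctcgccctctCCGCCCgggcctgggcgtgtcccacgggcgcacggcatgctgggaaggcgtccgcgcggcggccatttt
CLK2: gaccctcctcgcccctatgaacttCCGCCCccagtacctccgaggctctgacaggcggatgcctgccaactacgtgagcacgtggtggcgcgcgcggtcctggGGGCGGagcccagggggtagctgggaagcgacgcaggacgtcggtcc

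A GC box match stood in all 4 stretches, those of CLK1 and LUC7L3 as well as that of CLK2, and only the stretch of CLK4 held a TGACGT match, 115 to 110 bases before the start. In the 250 bases before the start, 23 of 40 splicing genes with a promoter entry held GGGCGG (57.5%), beside 42.6% of 35116 promoters. CCAAT stood in 16 of 40 (40.0%), beside 32.0%, TATAAA in 4 (10.0%), beside 10.7%, and TGACGT in 7 (17.5%), beside 7.10%. These matches are a description of letters in a window, and the 4 stretches shown do not separate the genes that were higher in both arms from CLK2.

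The SRPK kinases lay above control without reaching 2-fold. SRPK1 had 9.01 in control cells, 9.83 with the vector and 9.90 with the siRNAs, and SRPK2 had 8.74, 9.16 and 9.33. Both were lowest in control. The other probe sets of SRPK1 were at -0.04 and -0.22 in vector minus control and at -0.20 and -0.31 in siRNA minus control, so SRPK1 was above control on 1 of its 3 probe sets. For SRPK2 the differences ran from -0.10 to 0.42 and from -0.06 to 0.59.

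Of the 10 SR protein genes, 1 was at least 2-fold higher in each arm and 0 were lower, with a median difference of 0.09 in vector and 0.23 in siRNA cells. That gene was SRSF11, which encodes a protein of the SR family that contacts U2AF, with log2 signals of 10.45 in control cells, 11.45 with the vector and 11.48 with the siRNAs. Its differences of 1.00 and 1.03 lay at the 2-fold line, and 3 of 6 alternatives for the vector and 4 of 6 for the siRNAs kept it past 2-fold. All 6 probe sets of SRSF11 were above control, by 0.95 to 2.28 in vector and 0.87 to 2.18 in siRNA cells. SRSF10, which acts as a splicing repressor when dephosphorylated, was the next, with 9.24, 9.99 and 9.95. Each of its 7 probe sets was above control, and 3 of them were past 2-fold in each arm, with 6.59 in control cells, 8.34 with the vector and 8.19 with the siRNAs on the one that differed most.

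The other SR protein genes lay within 0.53 of control on their probe set of highest mean. SRSF1, the prototype SR protein, had 12.00, 12.19 and 12.27, SRSF3 had 12.63, 12.86 and 12.94, and SRSF7 had 11.76, 11.98 and 12.06. On those probe sets these 3 genes were lowest in control and highest in siRNA cells, by small amounts. On the probe set next in mean signal, SRSF1 differed by -0.34 in vector and -0.23 in siRNA cells, and SRSF3 by -0.09 and -0.07. SRSF1 was above control on 4 of its 6 probe sets in each arm, and SRSF3 on 4 and 5 of 7. SRSF2 had 11.06, 10.85 and 10.87, SRSF4 had 9.69, 9.41 and 9.35 on its only probe set, and SRSF9 had 12.26, 12.20 and 12.09. On these probe sets they were highest in control. SRSF2, however, was above control in both arms on 2 of its 3 probe sets, with 10.61, 10.71 and 10.88 on the one next in mean signal. SRSF5 was at 11.20, 11.19 and 11.39. SRSF6 was lower than control on its probe set of highest mean, with 9.58, 9.06 and 9.05, and higher on its other one, with 8.61, 9.22 and 9.34, so it has no single direction here.

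**Figure D3:**
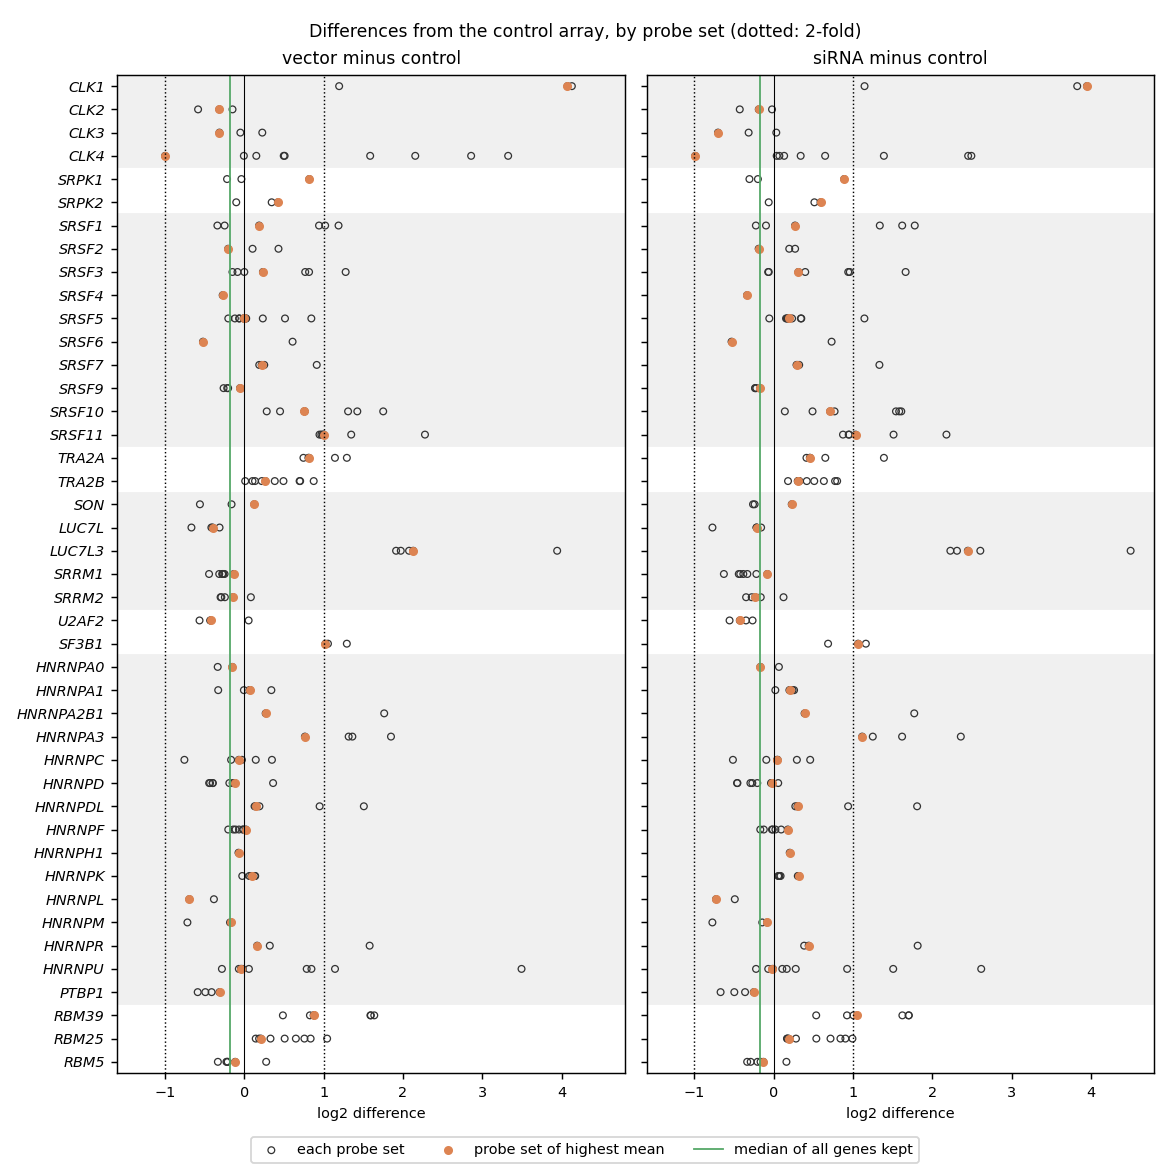
Log2 difference from control in vector (left) and siRNA cells (right) for every probe set of each splicing gene (open circles), with the probe set of highest mean filled, the 2-fold lines dotted and the median of all genes kept (-0.18 and -0.17) in green. No open circle lies left of the lower 2-fold line, and CLK4, SRSF1, HNRNPA2B1 and HNRNPU spread from near or below 0 to past 2-fold.

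Several genes of the SR and hnRNP groups were close to control on probe sets of high signal and well above it on probe sets of lower signal. On its probe set of highest mean SRSF1 differed by 0.19 in vector and 0.27 in siRNA cells, while on 3 others it differed by 0.94 to 1.19 and by 1.34 to 1.78. One of those 3 had 5.96 in control cells, 7.14 with the vector and 7.73 with the siRNAs. SRSF3 had 5.20, 6.48 and 6.87 on one probe set, and SRSF7 had 8.07, 8.98 and 9.40. Both sets were lowest in control and highest in siRNA cells. Signals of different probe sets also depend on probe affinity, and which transcript form each one reads was not tested.

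The same split was seen in some hnRNP genes. HNRNPA2B1, whose protein binds RNA in splicing and transport, had 12.60, 12.87 and 12.99 on the probe set of highest mean and 5.88, 7.64 and 7.65 on the other. HNRNPR had 12.28, 12.45 and 12.72 on the first and 3.98, 5.56 and 5.80 on the dimmest, which lay below the filter. HNRNPU, a scaffold protein that binds chromatin-associated RNA, had 12.08, 12.04 and 12.06 on the probe set of highest mean. Of its 10 probe sets 4 were within 0.06 of control in vector cells at mean signals above 11. A dim one, whose mean lay below the filter, had 3.17 in control cells, 6.66 with the vector and 5.78 with the siRNAs. HNRNPDL differed by 0.14 and 0.31 on the first and by 1.51 and 1.81 on the dimmest of its 5. Others went the opposite way, with -0.76 and -0.51 on the dimmest of HNRNPC and -0.72 and -0.77 on that of HNRNPM. Of 14 hnRNP genes with at least 2 probe sets above the filter, the dimmest was the more positive in 7 in vector cells. In siRNA cells it was so in 6.

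To set this beside the rest of the array, the brightest and the dimmest probe set above the filter were compared within each gene. Among 5982 genes with at least 2 such probe sets, the dimmest exceeded the brightest by 2-fold or more in 3.18% for vector minus control and in 4.16% for siRNA minus control. Of 41 splicing genes it did so in 7 (17.1%) and 9, and in the other direction in 2, CLK1 and SRPK1, for each. The other direction was seen in 224 and 291 of the 5982 genes. These shares are not like for like. The 43 splicing genes had 184 probe sets above the filter, and the 10917 genes kept had 22734. A gene with more probe sets has more room for a wide gap, and genes were not matched for this. Over SR protein genes the count was 3 of 9 in vector and 5 of 9 in siRNA cells, and over hnRNP genes 3 of 14 in each. The genes were SRSF3, SRSF6, SRSF11, HNRNPA2B1, HNRNPDL, HNRNPU and CLK4 in both arms, and also SRSF1 and SRSF7 in siRNA cells. The filter was on the mean over the 3 arrays. On the dim probe sets counted for SRSF3 (5.20), HNRNPDL (4.40), HNRNPU (4.79) and CLK4 (4.49) the control signal lay under the filter of 5.28. These passed it through the arms in which they were high. Without regard to size, the dimmest was the more positive in 20 of 41 splicing genes in each arm, beside 42.7% and 39.0% of all genes.

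**Figure D4:**
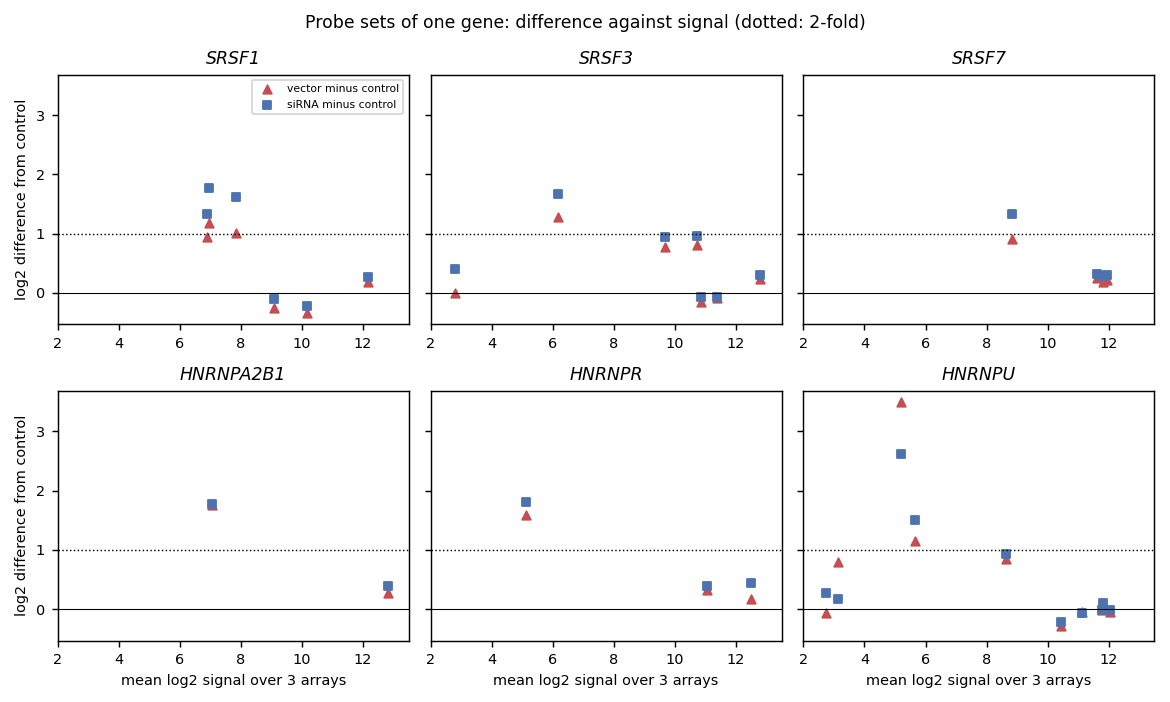
Log2 difference from control against mean log2 signal for each probe set of 6 genes, with vector minus control as triangles and siRNA minus control as squares. Probe sets of SRSF7, HNRNPA2B1 and HNRNPR with signals above 11 lie below 0.5, and those of lower signal lie between 0.91 and 1.81.

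Counted over probe sets, 38 of 211 (18.0%) were at least 2-fold higher in vector and 40 (19.0%) in siRNA cells than in control, where 10.2% and 9.53% of all probe sets with 1 symbol were. None was 2-fold lower in either arm, where 1.10% and 1.11% were, and none was 2-fold apart between the arms, where 1.24% were higher and 1.09% lower in vector cells. The splicing genes are bright. Among probe sets above the filter the shares were 32 of 184 (17.4%) and 35 of 184 (19.0%), beside 16.3% and 15.8%, so the distance from the background was smaller there. Beyond the filter these probe sets were not matched for signal. Some of those counted, such as those of CLK1 and one of SRSF3, passed the filter through the arms in which they were high. Probe sets of one gene share its transcripts and are not independent. Of the 18 CLK probe sets 7 were past 2-fold in vector and 6 in siRNA cells, all of CLK1 and CLK4. On each of these the control signal lay under the filter. For SR proteins the counts were 9 and 12 of 51, and for hnRNPs 8 and 9 of 68. By name ending, probe sets with _x_at, which can cross-hybridise, were past 2-fold in 2 of 51 for the vector and 4 of 51 for the siRNAs, beside 7.54% and 6.89% of all probe sets with that ending. Those with plain _at were past it in 7 of 20 for each, beside 9.18% and 9.02%. For _a_at the counts were 16 and 15 of 81, beside 9.53% and 8.39%. For _s_at they were 13 and 14 of 59, beside 18.2% and 18.7%.

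TRA2A and TRA2B, SR-like activators of exon inclusion, were above control on every probe set. TRA2A had 8.55 in control cells, 9.37 with the vector and 9.004 with the siRNAs, with differences over its 5 probe sets of 0.75 to 1.29 and 0.41 to 1.39. TRA2B had 12.12, 12.39 and 12.42, with a range over 10 probe sets of 0.01 to 0.87 and 0.18 to 0.80. TRA2A was highest in vector cells and TRA2B in siRNA cells, the latter by 0.04.

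The SR-related genes fell into a gene far above control and others close to it. LUC7L3, a relative of a U1 snRNP component of yeast, had 9.02 in control cells, 11.15 with the vector and 11.47 with the siRNAs, which is 4.38-fold and 5.45-fold higher. All 5 of its probe sets were past 2-fold in both arms, by 1.91 to 3.94 and by 2.23 to 4.50, and it stayed past 2-fold under all 6 alternatives. Its paralogue LUC7L was at 8.32, 7.92 and 8.10 and below control on all 4 probe sets. These paralogues thus lay on opposite sides of control in both arms. For LUC7L the differences of -0.40 and -0.22 were within the spread between probe sets (0.50 and 0.53). Once centred, its probe set of highest mean was at -0.22 and -0.05.

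SRRM1 and SRRM2 encode large splicing coactivators of nuclear speckles. SRRM1 had 10.90, 10.76 and 10.82 and was below control on all 7 probe sets, by at most 0.44 in vector and 0.63 in siRNA cells; its probe set of highest mean was at 0.05 and 0.09 once centred. SRRM2 had 8.70, 8.55 and 8.46. SON, a scaffold of nuclear speckles, had 10.29, 10.42 and 10.52, with its other probe sets below control. None of these 3 came near 2-fold.

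Of the 2 genes for 3' splice site recognition, SF3B1, the branch site subunit of the U2 snRNP, was above control and U2AF2, which binds the polypyrimidine tract, below it. SF3B1 had 10.29 in control cells, 11.31 with the vector and 11.35 with the siRNAs, differences of 1.02 and 1.06 at the 2-fold line. Its 3 probe sets ran from 1.02 to 1.29 in vector and from 0.68 to 1.16 in siRNA cells, and it stayed past 2-fold in 5 and 4 of 6 alternatives. U2AF2 had 11.58, 11.16 and 11.15. Its difference was -0.42 and -0.43, and the 4 probe sets lay between -0.57 and 0.05 and between -0.56 and -0.27.

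Among 15 hnRNP genes, PTBP1 included, 0 were at least 2-fold higher in vector and 1 in siRNA cells, and 0 were lower. The median difference was -0.04 in vector and 0.18 in siRNA cells. HNRNPA3 was the one past 2-fold, with 8.10 in control cells, 8.86 with the vector and 9.21 with the siRNAs. The order of the arrays was the same on its next probe set, with 7.65, 9.01 and 9.27, and all 4 were above control, by 0.76 to 1.85 and by 1.12 to 2.36. Processed pseudogenes resemble HNRNPA3 and HNRNPA1, and the 7 probe sets that the annotation shares between a member of the list and another gene were left out. Cross-signal in the others was not tested.

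HNRNPL, which binds CA-rich elements, was lower than control, with 9.22, 8.53 and 8.49, a difference of -0.69 and -0.73, and its other probe set was at -0.38 and -0.49. PTBP1, which represses exons at polypyrimidine tracts, had 12.02, 11.70 and 11.77, and HNRNPM had 12.29, 12.13 and 12.21. All probe sets of HNRNPL, PTBP1 and HNRNPM lay below control in both arms, although the probe set of highest mean of HNRNPM was at 0.02 and 0.08 once centred. The remaining hnRNP genes were within 0.35 of control in both arms on their probe set of highest mean, apart from HNRNPA2B1 (0.39) and HNRNPR (0.44) in siRNA cells. HNRNPA1, the core hnRNP, had 13.28, 13.35 and 13.49, HNRNPK had 11.92, 12.02 and 12.24, and HNRNPC had 13.00, 12.93 and 13.04. HNRNPD was at 12.33, 12.21 and 12.31, HNRNPF at 11.49, 11.51 and 11.67, HNRNPH1 at 10.56, 10.48 and 10.76, and HNRNPA0 at 10.05, 9.90 and 9.88. Against control these 7 genes lay within the spread between probe sets (0.50 and 0.53).

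RBM39, a partner of U2AF2, had 9.61 in control cells, 10.48 with the vector and 10.66 with the siRNAs. Its 7 probe sets were all above control, by 0.49 to 1.64 and 0.54 to 1.70. RBM25, which binds exonic enhancers, had 9.19, 9.40 and 9.38 with 9 probe sets above control, and RBM5, a regulator of splicing of apoptosis genes, had 8.83, 8.72 and 8.70. RBM39 was thus above control in both arms, while RBM5 was slightly below it on all but 1 of its 6 probe sets and, on the probe set of highest mean, above 0 once centred (0.07 and 0.04).

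Set side by side, the CLK genes had a median difference of -0.31 in vector and -0.45 in siRNA cells and a range of -0.999 to 4.08 and -0.991 to 3.95. For SR proteins the medians were 0.09 and 0.23 and the ranges -0.52 to 1.00 and -0.53 to 1.03, and for hnRNPs -0.04 and 0.18 with ranges of -0.69 to 0.76 and -0.73 to 1.12. On the probe sets of highest mean the CLK genes thus had the lower median and the wider range, with 4 genes and CLK4 placed by a single probe set. Taken over all probe sets, the CLK median was 0.36 in vector and 0.10 in siRNA cells. It was 0.23 and 0.31 for SR proteins and -0.02 and 0.07 for hnRNPs. The place of the CLK median thus depends on the probe sets taken. Relative to the all-gene median, the median over hnRNP genes in vector cells was 0.14, and cyclic loess gave 0.01, so its sign is not fixed.

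Between the arms, without the control array, none of the 43 genes was 2-fold apart, where 1.73% of all genes were higher and 1.85% lower in vector cells, and none was 1.5-fold apart, where 4.74% and 4.95% were. Differences ran from -0.35 for HNRNPA3 to 0.39 for CLK3. Next to these stood TRA2A (0.36), highest in vector cells, and LUC7L3 (-0.32), HNRNPH1 (-0.28) and HNRNPR (-0.28), highest in siRNA cells. Of the 43 genes 13 were higher in vector than in siRNA cells (30.2%), beside 52.0% of all genes, with a median of -0.07 beside 0.01. For hnRNPs 2 of 15 were higher in vector cells, with a median of -0.12, for SR proteins 4 of 10 with -0.02, and for CLK genes 2 of 4 with 0.06. Under repeated quantile normalization and cyclic loess 7 of 43 genes and 0 of 15 hnRNP genes were above 0, beside 46.2% and 49.2% of all genes. HNRNPA3, CLK3, TRA2A, LUC7L3, HNRNPH1 and HNRNPR lay beyond the spread between probe sets (0.14), as did others, such as HNRNPK (-0.22) and SRSF5 (-0.20). The median over the 43 genes lay within it. That spread leaves out variation between arrays, so lying beyond it does not establish a difference between the arms. HNRNPH1 has 1 probe set, and the probe sets of HNRNPA3, TRA2A, HNRNPK and SRSF5 lay on both sides of 0. The mean over the probe sets of HNRNPK was -0.07, within the spread.

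**Figure D5:**
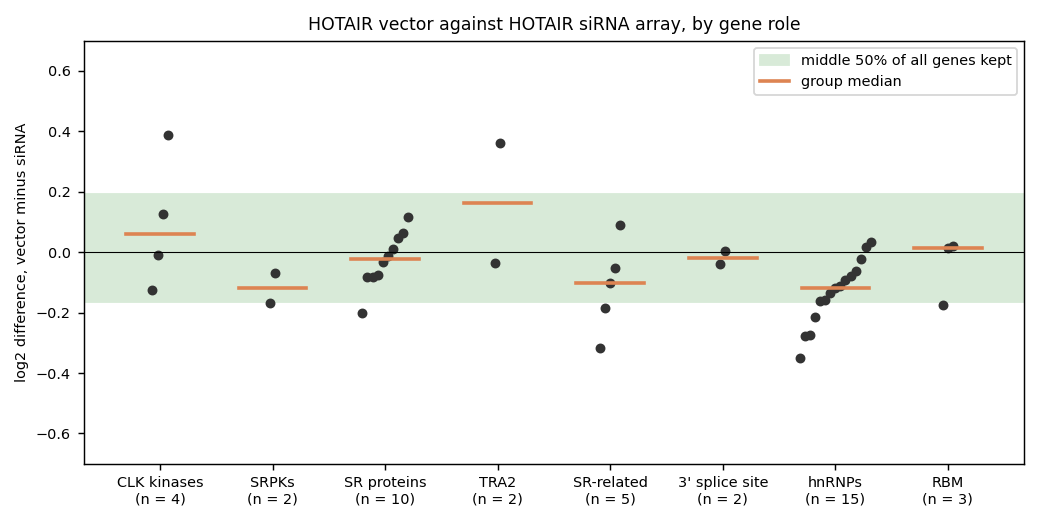
Log2 difference of the vector from the siRNA array for each splicing gene (points) by role, with the median of each role group (orange) and the interquartile range of all genes kept (green band, -0.16 to 0.19). Points of the hnRNP group lie mostly below 0 and none of the 43 passes 0.4 in either direction.

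Other splicing genes gave a wider context. Of 77 other SR-related and hnRNP-type genes kept, 19 were at least 2-fold higher in each arm and 0 lower, with medians of 0.15 and 0.23, beside backgrounds of 15.2% and 14.9% higher. They included PTBP2, the neuronal paralogue of PTBP1, with 4.11 in control cells, 7.35 with the vector and 7.41 with the siRNAs, the zinc finger SR-related gene ZRANB2 (7.69, 10.62 and 10.48) and the cyclophilin NKTR (5.45, 7.997 and 7.49). They also included BCLAF1, with 8.45, 10.68 and 10.52, and MBNL2, with 8.31, 10.76 and 10.18. The mean over probe sets placed MBNL2 at 0.74 and 0.35. PTBP2 lay above control and PTBP1 slightly below it in both arms, with the control signal of PTBP2 under the filter.

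Of 62 snRNP genes kept, 5 were 2-fold higher in vector and 6 in siRNA cells, 0 and 1 lower, with medians of -0.24 and -0.37. Of all genes kept, 15.2% and 14.9% were higher and 2.05% and 1.85% lower, so these shares lay below the background. PRPF18 was highest by difference (2.38 and 2.28), followed by PRPF39 (1.92 and 2.15), each on 1 probe set. The control signal of PRPF39 (4.53) lay under the filter, which it passed through the arms. CD2BP2 was the lower one in siRNA cells (-1.17, or -0.82 over its probe sets). SNRNP48 (1.69) and SLU7 (1.47) followed in vector cells, and SLU7 (1.35) and SNRNP48 (1.22) in siRNA cells. Of 15 other splicing kinases and cyclins 1 was 2-fold higher in each arm, CCNL1 (1.19 and 1.20), a cyclin of the splicing kinase CDK11. Of 17 genes of the exon junction complex and nonsense-mediated decay, 2 were higher in each arm, the decay factor UPF2 (1.64 and 1.59) and the kinase SMG1 (1.67 and 1.54). On the kinase and decay lists too, the shares higher lay below those of all genes. None of these 170 genes (1 stands on a pair of lists) was 2-fold apart between vector and siRNA cells. Of all genes kept, 1.73% were higher and 1.85% lower in vector cells.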

How the data were processed

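Total RNA was labelled with a 3' IVT kit, per the labels' protocols, and hybridised to 1 array per group. The authors deposited log2 signals per probe set from RMA; this step comes from the submitters' processing notes, which name no version, and the log2 scale was read from the range of values. RMA can compress differences near background. Whether differences of dim probe sets are understated here was not tested. The table held 49293 probe sets, of which 44988 had 1 gene symbol in the platform annotation. A gene was its probe set of highest mean, and 10917 genes at or above the median probe set mean were kept.

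The genes and lists were chosen with earlier results of these data known. All listed genes were accounted for; of other lists, at most 4 genes past 2-fold per list and comparison were named. Differences were counted at 2-fold, with no test. Alternatives were the mean or median over probe sets, leaving out _x_at and _s_at names, repeated quantile normalization, cyclic loess (span 0.4, 3 cycles, limma 3.58.1), centring, other filters and other folds. The steps were tested on simulated data. Promoter sequences came from RefSeq for 40 of 44 genes. Python 3.11.15, numpy 2.4.6, pandas 2.3.3 and R 4.3.3 were used.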

Additional observations from a re-analysis of the deposited data

How the results depend on the processing

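Counts of splicing genes at least 2-fold higher than control in vector cells (4) were 7 with the mean and 7 with the median over probe sets, 2 after repeated quantile normalization, 9 at 1.5-fold and 2 at 3-fold, and in siRNA cells (6) 2 at 3-fold. Genes 2-fold lower (0) were 1 in each arm after repeated quantile normalization, which was CLK4, and at 1.5-fold 2 in vector and 3 in siRNA cells. Probe sets 2-fold higher in vector cells (38) were 23 without _x_at and _s_at names, 66 at 1.5-fold and 19 at 3-fold, and in siRNA cells (40) 22, 63 and 23. Leaving those names out also left fewer probe sets. Probe sets 2-fold lower (0) were 1 in each arm after repeated quantile normalization, and at 1.5-fold 6 and 7. Between the arms 5 probe sets were higher and 3 lower at 1.5-fold. The SRPK median (0.62 in vector, 0.74 in siRNA cells) was 0.21 and 0.24 with the mean and 0.15 and 0.16 with the median over probe sets, and the RBM median (0.21 and 0.19) was 0.61 and 0.63 with the median over probe sets. With the median over probe sets the CLK median was -0.022 in siRNA cells and 0.27 between the arms, without CLK4, and the median of the 3' splice site genes between the arms was 0.19. For other changes the cause was not tested. Of 744 differences of single genes under alternatives, 679 moved by no more than the spread between probe sets over all genes. That spread was 0.36 in vector minus control, 0.39 in siRNA minus control and 0.21 between the arms. Centring moves every gene by the all-gene median (-0.18, -0.17 and 0.01), so it could not pass this limit. No paired analysis was possible because each group has 1 array, which also limits the precision of every value.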
